A study of Mus musculus with 9 samples.

Results

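Of 1319 protein-coding nuclear genes that differed between MIN6 cells overexpressing Nr4a1 and untransfected MIN6 cells by the limits below, 55 also differed, in the same direction and by the same limits, between cells given EGCG upon the overexpression and the untransfected cells. They were 24 genes higher than control in both groups and 31 genes lower in both. The genes were chosen from TPM, the length-corrected share of a transcript in its library, summed per gene. Each had a mean of at least 5 TPM over the 9 libraries and differences from control of at least 0.58 in size on the scale of mean log2(TPM + 1). All 3 control libraries also lay on one side of the other 6, and Nr4a1 itself was left out. The same limits were passed by 117 genes with EGCG, so the 55 genes made up 4.17% of the overexpression differences and 47.0% of the EGCG differences, out of 6754 nuclear protein-coding genes of at least 5 TPM. These values chose the genes, so the differences from control are given as a description, without a test.

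MIN6 is a mouse insulinoma line that stands in for beta cells in culture, and each of 3 groups had 3 total RNA libraries. The EGCG_TRT group was MIN6 cells that overexpressed Nr4a1 and received EGCG (epigallocatechin gallate, the main catechin of green tea), the Nr4a1_OE group overexpressed Nr4a1 without EGCG, and the Ctrl group was untransfected. The sources used here do not give the dose, time or vehicle of EGCG, the transfection method or the promoter behind Nr4a1, so EGCG and its vehicle cannot be told apart. Both other groups were transfected and Ctrl was not, so transfection and Nr4a1 cannot be told apart in any difference from Ctrl. Both also share the same 3 Ctrl libraries. All libraries were labelled batch 1, and no label ties the triplicates to separate cultures, so p-values cover only the spread of these 9 libraries, which may be technical.

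Nr4a1 (Nur77) is an orphan nuclear receptor that is induced within minutes to hours by many signals and that can bind DNA as a monomer at the NBRE, an extended nuclear receptor site. EGCG is a polyphenol with many reported protein targets. Beta cells depend on a small set of transcription factors, on oxidative metabolism and on a large secretory apparatus.

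Nr4a1 was at 46.3, 60.9 and 54.5 TPM in the EGCG_TRT libraries, at 128.3, 122.5 and 165.2 TPM in the Nr4a1_OE libraries and at 0.63, 0.78 and 0.76 TPM in the Ctrl libraries. The EGCG_TRT cells thus still carried far more Nr4a1 RNA than Ctrl and less than Nr4a1_OE, so amount of Nr4a1 RNA and EGCG cannot be told apart between those groups. Of 10 beta cell markers, 9 reached 1 TPM, with summed levels of 4048 to 4387 TPM in EGCG_TRT, 5857 to 6135 TPM in Nr4a1_OE and 3785 to 3935 TPM in Ctrl. None of 9 fibroblast markers, 1 of 8 macrophage markers and 1 of 9 acinar and ductal markers reached 1 TPM in any library. The depth behind TPM is unknown. In bulk RNA, fewer cells of a kind and less RNA per cell cannot be told apart.

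Ctrl replicate 3 stood apart from the other Ctrl libraries in the direction of the transfected groups. It was the Ctrl library nearest to them for 49 of the 55 genes, 20 of the 24 higher and 29 of the 31 lower, and EGCG_TRT replicate 3 was the EGCG_TRT library nearest to Ctrl for 36. Summed TPM of the 23 lower genes other than the repeat-bearing ones described next was 1089, 1209 and 959 in EGCG_TRT, 1158, 1178 and 1205 in Nr4a1_OE and 2571, 2631 and 1755 in Ctrl. Without Ctrl replicate 3 the same rule chose 132 genes, 62 higher and 70 lower, which included 54 of the 55. The set held less well without the other Ctrl libraries. Without Ctrl replicate 1 the rule chose 44 genes, which included only 36 of the 55. Without Ctrl replicate 2 it chose 49, which included only 39. Without EGCG_TRT replicate 3 it chose 83, which included 53 of the 55, all but Fanca and Jun. The median differences of the 55 genes moved little when Ctrl replicate 3 was left out. For the higher genes they were 0.68 (EGCG_TRT minus Ctrl) and 1.03 (Nr4a1_OE minus Ctrl), and 0.75 and 1.11 without Ctrl replicate 3. For the lower genes they were -0.91 and -1.15, and -1.08 and -1.26 without Ctrl replicate 3.

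**Figure D1:**
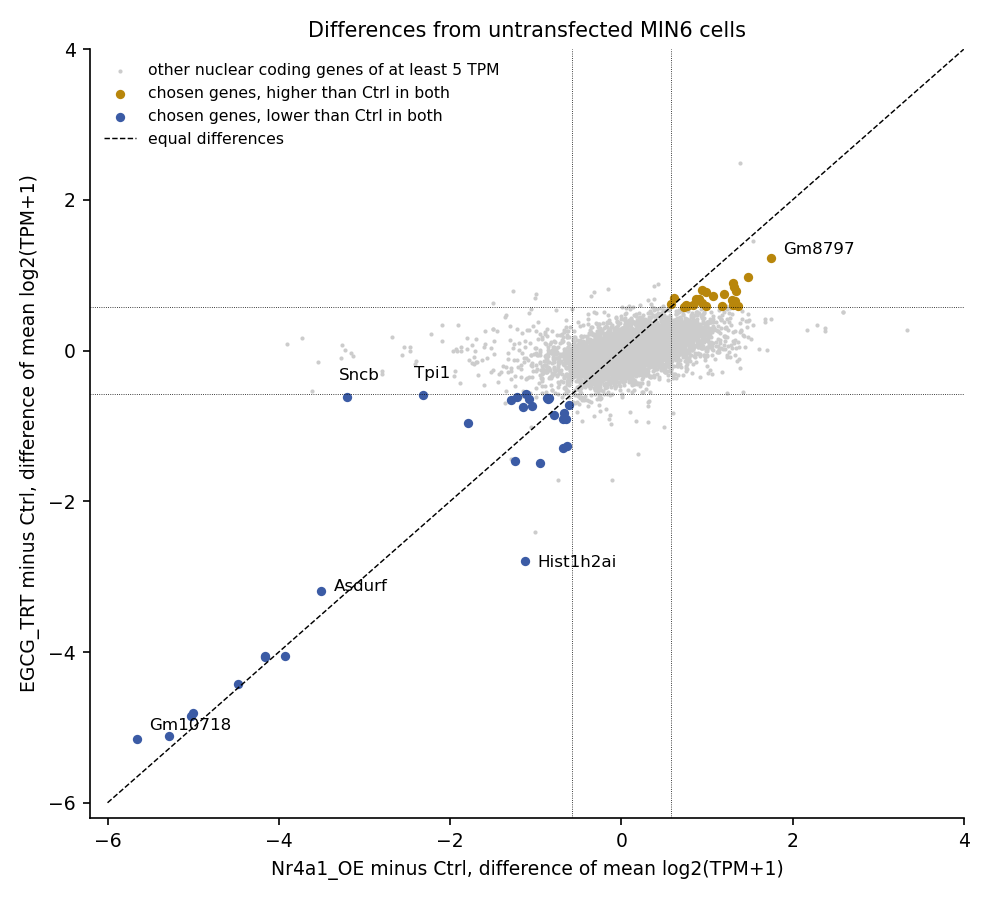
Each point is 1 of 6754 nuclear protein-coding genes of at least 5 TPM, placed by its difference from Ctrl in Nr4a1_OE (horizontal) and in EGCG_TRT (vertical), both as differences of mean log2(TPM + 1). Dotted lines mark 0.58 in size and the dashed line marks equal differences. Most of the 24 higher and 31 lower genes lie between the dashed line and the horizontal dotted lines, while 8 predicted genes lie near -4 to -6 on both axes and Sncb and Tpi1 lie far left of the dashed line.

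The lowest values belonged to 8 predicted genes that share a DNA repeat. They are Gm10800 and Gm10801 on chromosome 2 and Gm10717, Gm10718, Gm10719, Gm10721, Gm10722 and Gm11168 on chromosome 9. A run of 42 bases at the start of Gm10800 and Gm10718 is held by all 8, and by only 9 of 21876 protein-coding transcripts, the ninth being Gm17535. As background, these letters belong to the mouse major satellite, the tandem repeat of pericentromeric heterochromatin. The first bases of 2 spliced transcripts are shown because the likeness limits how their values can be read. Gm10800 lies at chr2:98666547-98667301 on the minus strand and Gm10718 at chr9:3023547-3025218 on the plus strand (GRCm38, GENCODE M21), and capitals mark the shared run.
Gm10800: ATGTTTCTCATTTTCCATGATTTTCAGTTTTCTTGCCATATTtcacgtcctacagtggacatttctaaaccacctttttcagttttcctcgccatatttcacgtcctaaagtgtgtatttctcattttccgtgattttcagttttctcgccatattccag
Gm10718: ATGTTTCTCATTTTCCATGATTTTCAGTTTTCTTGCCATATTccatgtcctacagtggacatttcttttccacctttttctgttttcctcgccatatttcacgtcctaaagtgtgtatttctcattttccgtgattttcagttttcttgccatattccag

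The 8 transcripts were 88.3% to 97.0% identical to one another, so the authors' estimation may have shared reads between them, and with repeat copies outside genes. Summed over the 8 genes, TPM was 199.5, 141.2 and 384.7 in EGCG_TRT, 240.5, 162.4 and 212.1 in Nr4a1_OE and 8284, 7546 and 4538 in Ctrl. The groups with Nr4a1 overlapped each other and lay far below every Ctrl library. Gm10800, the most abundant, was at 92.6, 68.3 and 192.7 TPM in EGCG_TRT, at 120.03, 71.6 and 100.8 TPM in Nr4a1_OE and at 4735, 4291 and 2589 TPM in Ctrl. Its difference from Ctrl was -5.12 in EGCG_TRT and -5.28 in Nr4a1_OE. Over the 8 genes the differences ran from -5.15 (Gm10718) to -4.05 (Gm10719) with EGCG and from -5.66 (Gm10718) to -3.93 (Gm10719) without it. None of the 8 was called between EGCG_TRT and Nr4a1_OE (limma, Benjamini-Hochberg adjusted p from 0.244 to 0.912).

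Another broad signal moved with this repeat. The summed TPM of 1753 olfactory, vomeronasal and trace-amine receptor genes, which beta cells are not known for, was 10.3, 9.29 and 13.8 in EGCG_TRT, 5.42, 4.78 and 5.10 in Nr4a1_OE and 121.1, 101.3 and 61.3 in Ctrl. The order of the libraries within Ctrl was that of the repeat-bearing genes. Per receptor gene the Ctrl libraries averaged 0.0691, 0.0578 and 0.0350 TPM. With each library's mean receptor TPM subtracted as a background, the rule chose 24 higher and 30 lower genes. All 54 were also chosen without the subtraction. The amount subtracted was at most 0.0691 TPM, against a minimum mean of 5 TPM, so the choice could hardly change. The subtraction was thus no test of whether the chosen genes carry this signal. A part of this signal that differs from gene to gene was not tested.

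**Figure D2:**
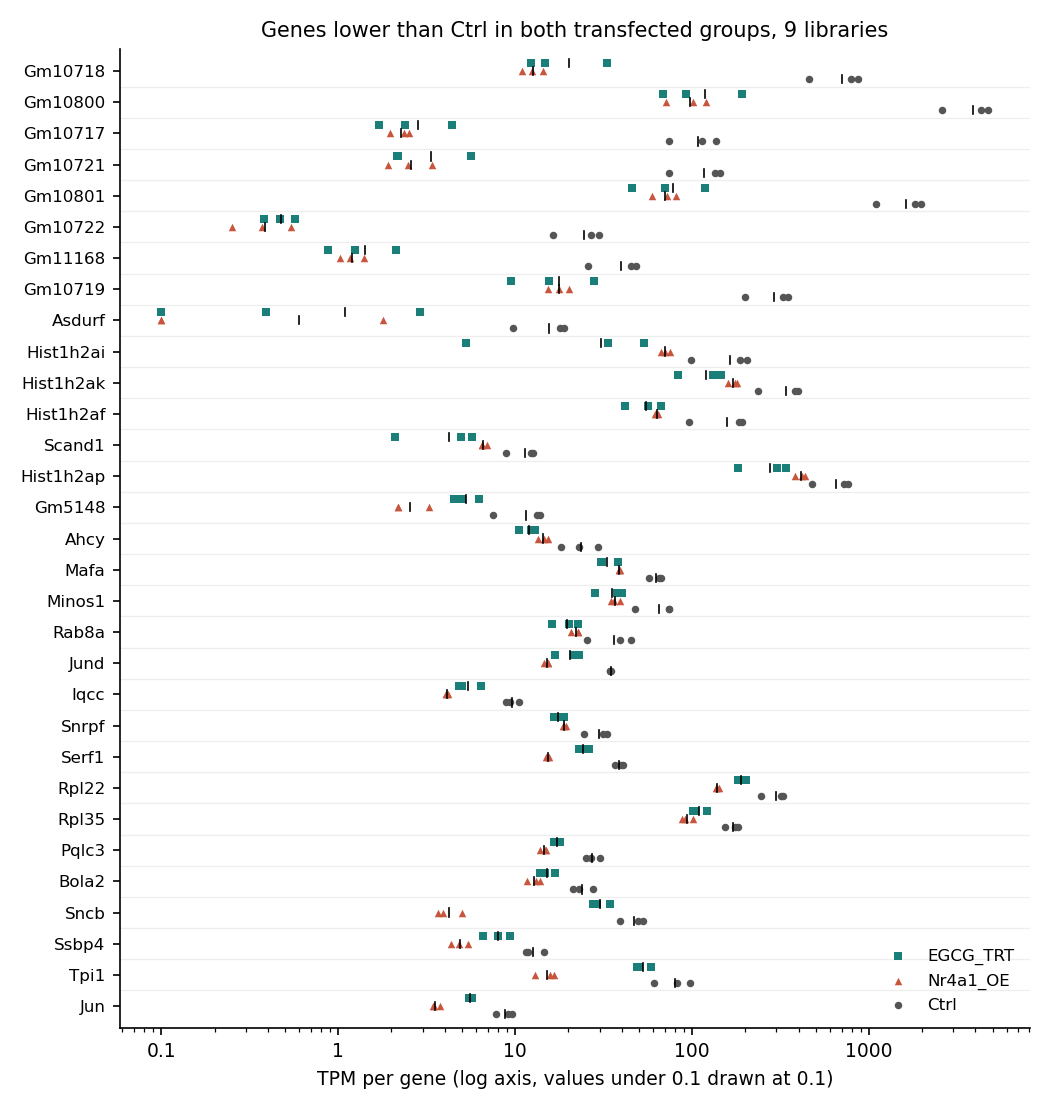
TPM of the 31 lower genes in each of the 9 libraries on a log axis, with squares for EGCG_TRT, triangles for Nr4a1_OE, circles for Ctrl and a short line at each group's mean. Genes are ordered by the size of the EGCG_TRT minus Ctrl difference. The Ctrl circles lie right of all other symbols in every row, and Sncb and Tpi1 show the widest gap between squares and triangles.

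The other family among the lower genes was 4 histone H2A genes. Replication-dependent histone genes encode the core of newly made nucleosomes, and their short, mostly intronless mRNAs lack a poly(A) tail, so total RNA libraries capture them. Hist1h2ai was at 33.3, 53.2 and 5.25 TPM in EGCG_TRT, at 74.9, 70.5 and 66.9 TPM in Nr4a1_OE and at 187.2, 204.0 and 98.2 TPM in Ctrl. EGCG_TRT replicate 3 was far below its group, and the difference from Ctrl with EGCG was -2.79 with that library and -1.86 without it, beside -1.13 in Nr4a1_OE. Hist1h2ap, the most abundant of the 4, was at 301.9, 339.3 and 182.6 TPM in EGCG_TRT, at 381.4, 420.1 and 436.2 TPM in Nr4a1_OE and at 722.4, 757.3 and 478.5 TPM in Ctrl. It was the only one of the 55 genes called as farther from Ctrl with EGCG than without, by -0.63 ± 0.24 (SE) on the log2(TPM + 1) scale (limma, adjusted p = 0.0484). This call was lost under 12 of 21 alternatives, with the difference between -0.81 and -0.36 in all 21. Without EGCG_TRT replicate 3 it was -0.36 (adjusted p = 0.136), and without Nr4a1_OE replicate 3 it was -0.59 (adjusted p = 0.117). Under the 3 scalings it ran from -0.60 to -0.48 (adjusted p from 0.0699 to 0.119). Hist1h2af and Hist1h2ak had differences from Ctrl of -1.46 and -1.49 with EGCG and of -1.24 and -0.94 without it.

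The H2A genes are near copies of each other, 96.4% to 98.5% identical among the 4, so single-gene values are uncertain and the family sum is the steadier measure. Over 18 H2A genes it was 1058, 1195 and 664 TPM in EGCG_TRT, 1585, 1725 and 1760 TPM in Nr4a1_OE and 2420, 2557 and 1648 TPM in Ctrl. EGCG_TRT lay below every other library, while Nr4a1_OE overlapped Ctrl through Ctrl replicate 3. Of 17 H2A genes tested, 10 were lower and 0 higher in EGCG_TRT than in Ctrl (7.1% and 11.1% of all genes tested). In Nr4a1_OE, 4 were lower and 2 higher than in Ctrl (21.3% and 38.2% of all). The 18 H2B genes summed to 1843, 1941 and 1461 TPM in EGCG_TRT, 2439, 2577 and 2745 TPM in Nr4a1_OE and 1371, 1471 and 1699 TPM in Ctrl. Every Nr4a1_OE library was above every Ctrl library in this sum. Of 17 H2B genes tested, 14 were higher and 1 lower in Nr4a1_OE than in Ctrl (38.2% and 21.3% of all). Those counts were 12 and 1 under each of the 3 scalings, and for H2A 2 higher with 3 or 4 lower. A single H3 gene, Hist1h3f, was among the 24 higher genes, at 5.59 to 7.68 TPM in EGCG_TRT, 8.84 to 10.6 TPM in Nr4a1_OE and 3.07 to 4.95 TPM in Ctrl. The 12 H3 genes summed to 1610, 1810 and 1171 TPM in EGCG_TRT, below every Ctrl library (2125, 2378 and 2105 TPM). In Nr4a1_OE the sum was 2433, 2665 and 2824 TPM. Of 11 H3 genes tested, 5 were lower and 2 higher in EGCG_TRT than in Ctrl (7.1% and 11.1% of all genes tested). In Nr4a1_OE, 0 were lower and 4 higher than in Ctrl (21.3% and 38.2% of all).

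**Figure D3:**
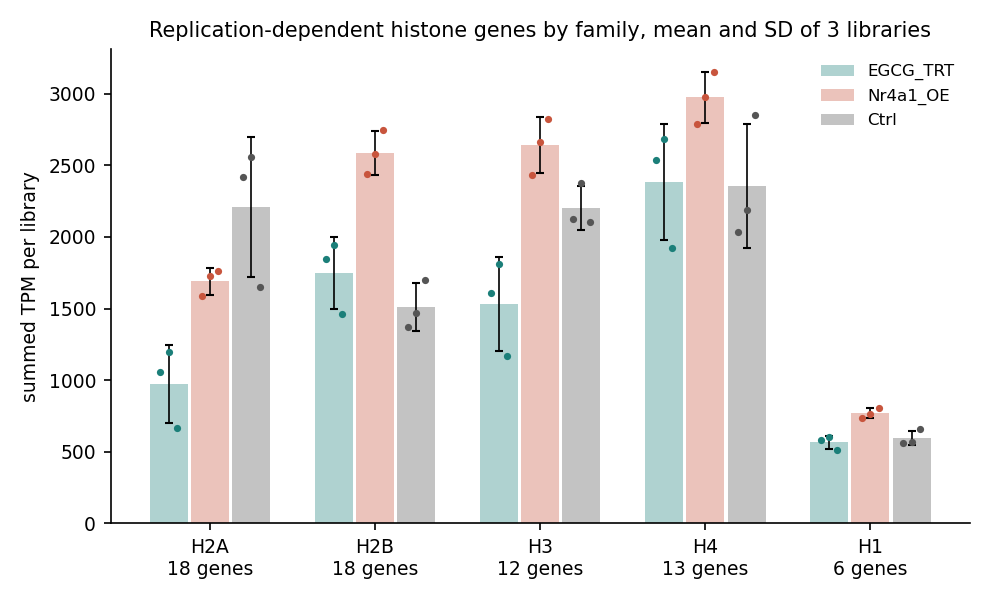
Summed TPM of the replication-dependent histone genes of each family, with bars for the mean, whiskers for the SD and points for the 3 libraries of each group. H2A is the family whose EGCG_TRT and Nr4a1_OE means (972 and 1690 TPM) both lie below the Ctrl mean (2209 TPM).

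The promoters of the 4 H2A genes are shown because RefSeq gives them and histone promoters are known for a CCAAT box near the start. The 120 bases before each RefSeq start are given 5′ to 3′ on the gene's strand (GRCm38.p6), cut to 88 in Hist1h2ap where the GENCODE gene begins, with CCAAT or its reverse complement ATTGG, and TATAA, in capitals. They lie at chr13:23533755-23533874 (plus strand, Hist1h2af), chr13:21716292-21716411 (plus, Hist1h2ai), chr13:21753913-21754032 (minus, Hist1h2ak) and chr13:21833508-21833595 (minus, Hist1h2ap).
Hist1h2af: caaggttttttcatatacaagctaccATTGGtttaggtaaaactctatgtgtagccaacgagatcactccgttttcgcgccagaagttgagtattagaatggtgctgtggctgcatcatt
Hist1h2ai: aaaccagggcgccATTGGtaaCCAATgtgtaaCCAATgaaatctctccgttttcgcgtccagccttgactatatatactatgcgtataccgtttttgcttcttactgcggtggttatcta
Hist1h2ak: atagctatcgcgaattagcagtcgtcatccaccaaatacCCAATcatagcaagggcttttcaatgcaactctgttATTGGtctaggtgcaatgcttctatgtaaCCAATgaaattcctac
Hist1h2ap: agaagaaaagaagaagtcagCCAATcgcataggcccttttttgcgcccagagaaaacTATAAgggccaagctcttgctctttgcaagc

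RefSeq promoters were matched for 38 of the 55 genes, and motifs were sought in the 250 bases before the start. CCAAT on either strand was in 9 of 17 higher genes and 12 of 21 lower ones, against 39.5% of 17492 genes. TATAA was in 3 and 4, against 23.5%. The NBRE bound by Nr4a1, AAAGGTCA on either strand, was in 0 and 1, against 1.39%. That 1 match was in Snrpf, which encodes a core protein of the spliceosomal snRNPs. It begins 18 bases before the RefSeq start, at chr10:93589669-93589676 on the minus strand (GRCm38.p6), inside the gene as GENCODE M21 annotates it, and is in capitals within the 29 bases of chr10:93589659-93589687.
Snrpf: ggcgtgaggtgAAAGGTCAggccgctttt

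Snrpf was at 16.6, 18.8 and 17.0 TPM in EGCG_TRT, at 19.0, 19.4 and 18.7 TPM in Nr4a1_OE and at 31.5, 33.1 and 24.5 TPM in Ctrl. The core of the hypoxia response element, ACGTG, was in 6 higher and 4 lower genes (19.96% of all), the full cAMP response element TGACGTCA in none (2.201%) and the core of the interferon-stimulated response element in none (3.48%). A match is a spelling in this window and no measure of binding.

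The lower genes included 3 transcription factors, Mafa, Jun and Jund. Mafa, which activates the insulin gene and marks mature beta cells, was at 30.9, 38.4 and 30.5 TPM in EGCG_TRT, at 39.0, 38.6 and 38.5 TPM in Nr4a1_OE and at 65.1, 66.6 and 57.0 TPM in Ctrl. Every EGCG_TRT library was below every Nr4a1_OE library, but the difference of -0.22 ± 0.092 (SE) was not called (limma, adjusted p = 0.0714). It was called without Ctrl replicate 3 (adjusted p = 0.0477), where its size was the same, and without EGCG_TRT replicate 2 (-0.32, adjusted p = 0.00677). It shrank to -0.11 with median-ratio scaling, -0.071 on the nuclear protein-coding scale and -0.022 with quantile normalization (adjusted p from 0.326 to 0.847). Pdx1, another insulin gene activator that did not meet the rule, ran otherwise, with 33.7 ± 4.07 TPM in EGCG_TRT, 70.6 ± 4.03 TPM in Nr4a1_OE and 42.4 ± 2.56 TPM in Ctrl (SD, n = 3 each). Of 14 beta cell transcription factors tested, 8 were lower and 0 higher in EGCG_TRT than in Ctrl (7.1% and 11.1% of all genes tested). In Nr4a1_OE, 3 were lower and 4 higher than in Ctrl (21.3% and 38.2% of all).

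Jun and Jund encode subunits of AP-1, a dimeric factor that responds to growth and stress signals. Jund was at 21.5, 22.8 and 16.8 TPM in EGCG_TRT, at 15.4, 15.3 and 14.6 TPM in Nr4a1_OE and at 34.6, 34.4 and 34.95 TPM in Ctrl. Jun was at 5.69, 5.50 and 5.46 TPM in EGCG_TRT, at 3.74, 3.43 and 3.46 TPM in Nr4a1_OE and at 9.56, 9.07 and 7.83 TPM in Ctrl. For both genes EGCG_TRT lay between the other groups with no overlap. EGCG_TRT was above Nr4a1_OE by 0.40 ± 0.096 for Jund (SE; limma, adjusted p = 0.00722) and by 0.53 ± 0.071 for Jun (SE; limma, adjusted p = 0.000301). Jun stood just inside the limit, at -0.58 from Ctrl with EGCG. Of 16 immediate early genes tested, 11 were lower and 3 higher in Nr4a1_OE than in Ctrl (21.3% and 38.2% of all genes tested). In EGCG_TRT, 5 were lower and 0 higher than in Ctrl (7.1% and 11.1% of all). Junb, a related subunit, averaged 8.19 ± 0.691 TPM in EGCG_TRT, 6.48 ± 0.255 TPM in Nr4a1_OE and 8.82 ± 0.320 TPM in Ctrl (SD, n = 3 each).

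Sncb and Tpi1 met the rule although most of their difference was gone with EGCG. Sncb, which encodes beta-synuclein, a presynaptic protein, was at 27.5, 29.0 and 34.3 TPM in EGCG_TRT, at 5.01, 3.93 and 3.68 TPM in Nr4a1_OE and at 49.3, 53.1 and 39.0 TPM in Ctrl. EGCG_TRT was 7.20-fold above Nr4a1_OE, by 2.59 ± 0.14 (SE; limma, adjusted p = 1.55e-06), and still 0.62 below Ctrl. Tpi1, which interconverts the triose phosphates of glycolysis, was at 50.02, 49.1 and 58.8 TPM in EGCG_TRT, at 16.6, 13.01 and 15.7 TPM in Nr4a1_OE and at 97.8, 82.8 and 61.0 TPM in Ctrl. EGCG_TRT exceeded Nr4a1_OE by 1.74 ± 0.16 (SE; limma, adjusted p = 3.56e-05), and EGCG_TRT replicate 3 nearly reached Ctrl replicate 3. Of 19 glycolysis genes tested, 18 were lower and 0 higher in Nr4a1_OE than in Ctrl (21.3% and 38.2% of all genes tested). Against Nr4a1_OE, 18 were higher and 0 lower in EGCG_TRT (18.8% and 34.1% of all). Against Ctrl, 3 were higher and 3 lower in EGCG_TRT (11.1% and 7.1% of all).

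Among the other lower genes, Rpl22 and Rpl35 encode proteins of the large ribosomal subunit. Rpl22 was at 182.8, 183.5 and 200.9 TPM in EGCG_TRT, at 142.6, 136.7 and 137.8 TPM in Nr4a1_OE and at 326.5, 319.1 and 245.9 TPM in Ctrl, so the groups did not overlap. Of 56 cytosolic ribosomal protein genes tested, a list that holds Rpl22, 13 were lower and 25 higher in Nr4a1_OE than in Ctrl. Among all genes tested, 21.3% were lower and 38.2% higher. With median-ratio scaling the counts of this list were 19 and 11, so the larger count changed sides. Serf1, a small basic protein gene linked to protein aggregation, was at 23.1, 23.6 and 26.2 TPM in EGCG_TRT, at 15.01, 15.5 and 15.4 TPM in Nr4a1_OE and at 40.6, 39.6 and 36.6 TPM in Ctrl. Bola2, which takes part in iron-sulfur cluster handling, Pqlc3, Iqcc, Ssbp4, Scand1 and Gm5148 had differences from Ctrl between -0.61 and -1.29 with EGCG. Asdurf, an upstream reading frame of Asnsd1, shares all 300 of its exon bases with that gene and stood at 0.39, 0.00 and 2.89 TPM in EGCG_TRT, at 0.00, 0.00 and 1.79 TPM in Nr4a1_OE and at 18.9, 18.0 and 9.79 TPM in Ctrl.

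The 24 higher genes had no dominant family and smaller differences, from 0.58 to 1.23 with EGCG and from 0.58 to 1.75 without it. The largest was Gm8797, at 60.9, 68.2 and 53.3 TPM in EGCG_TRT, at 77.4, 85.9 and 98.6 TPM in Nr4a1_OE and at 15.1, 26.01 and 40.4 TPM in Ctrl. The annotation used calls it protein coding and RefSeq calls it a pseudogene. The next was Gm20390, whose exons are all shared with Nme1 or Nme2, nucleoside diphosphate kinases, so its reads cannot be told from theirs.

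Membrane and lysosome genes among the higher ones were Ap3d1, Grn, Prcp, Tfrc and Tm4sf4. Ap3d1, the delta subunit of the AP-3 coat that sorts cargo to lysosome-related organelles, was at 19.99, 20.9 and 19.3 TPM in EGCG_TRT, at 28.6, 27.7 and 28.4 TPM in Nr4a1_OE and at 10.9, 11.6 and 9.86 TPM in Ctrl. The transferrin receptor Tfrc, the route of iron into cells, was at 21.8, 21.9 and 21.9 TPM in EGCG_TRT, at 31.9, 33.1 and 34.6 TPM in Nr4a1_OE and at 13.7, 13.7 and 14.98 TPM in Ctrl. In both genes the groups did not overlap and EGCG_TRT lay in between, below Nr4a1_OE by 0.48 ± 0.061 for Ap3d1 and by 0.58 ± 0.052 for Tfrc (SE; limma, adjusted p = 0.00023 and 3.12e-05). Grn, which encodes the lysosomal and secreted progranulin, was at 11.96, 17.2 and 13.9 TPM in EGCG_TRT, at 14.9, 14.5 and 17.9 TPM in Nr4a1_OE and at 7.95, 8.37 and 6.78 TPM in Ctrl. Of 12 iron handling genes tested, 6 were higher and 1 lower in Nr4a1_OE than in Ctrl (38.2% and 21.3% of all genes tested). In EGCG_TRT, 5 were higher and 1 lower than in Ctrl (11.1% and 7.1% of all). The Nr4a1_OE counts became 6 and 3 under median-ratio scaling and quantile normalization, and 6 and 2 on the nuclear protein-coding scale.

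Metabolic genes among the higher ones were Mdh1 (cytosolic malate dehydrogenase), Eno3 (an enolase of muscle), Gcat (threonine breakdown to glycine), Pnp (purine salvage), Atox1 (a copper chaperone) and Ndufa2 (a complex I subunit). Ndufa2 was at 70.2, 71.8 and 63.5 TPM in EGCG_TRT, at 80.2, 75.1 and 77.8 TPM in Nr4a1_OE and at 40.3, 37.0 and 49.9 TPM in Ctrl. Of 40 nuclear oxidative phosphorylation genes tested, 27 were higher and 2 lower in Nr4a1_OE than in Ctrl (38.2% and 21.3% of all genes tested). In EGCG_TRT, 9 were higher and 3 lower than in Ctrl (11.1% and 7.1% of all). Eno3 was at 9.21, 10.9 and 8.96 TPM in EGCG_TRT, at 10.5, 10.9 and 12.9 TPM in Nr4a1_OE and at 4.16, 5.83 and 5.84 TPM in Ctrl, the reverse of Tpi1 on the same pathway. RNA and DNA genes were Ddx39 (an RNA helicase of mRNA export), Cmtr1 (which methylates the mRNA cap), Polr2h (a subunit shared by the RNA polymerases) and Fanca (DNA crosslink repair). Fanca was at 9.83, 9.48 and 10.9 TPM in EGCG_TRT, at 18.3, 18.0 and 17.1 TPM in Nr4a1_OE and at 5.85, 6.15 and 6.94 TPM in Ctrl. Its EGCG_TRT level was 0.76 ± 0.072 (SE) below Nr4a1_OE, the largest such difference among the higher genes (limma, adjusted p = 3.86e-05).

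**Figure D4:**
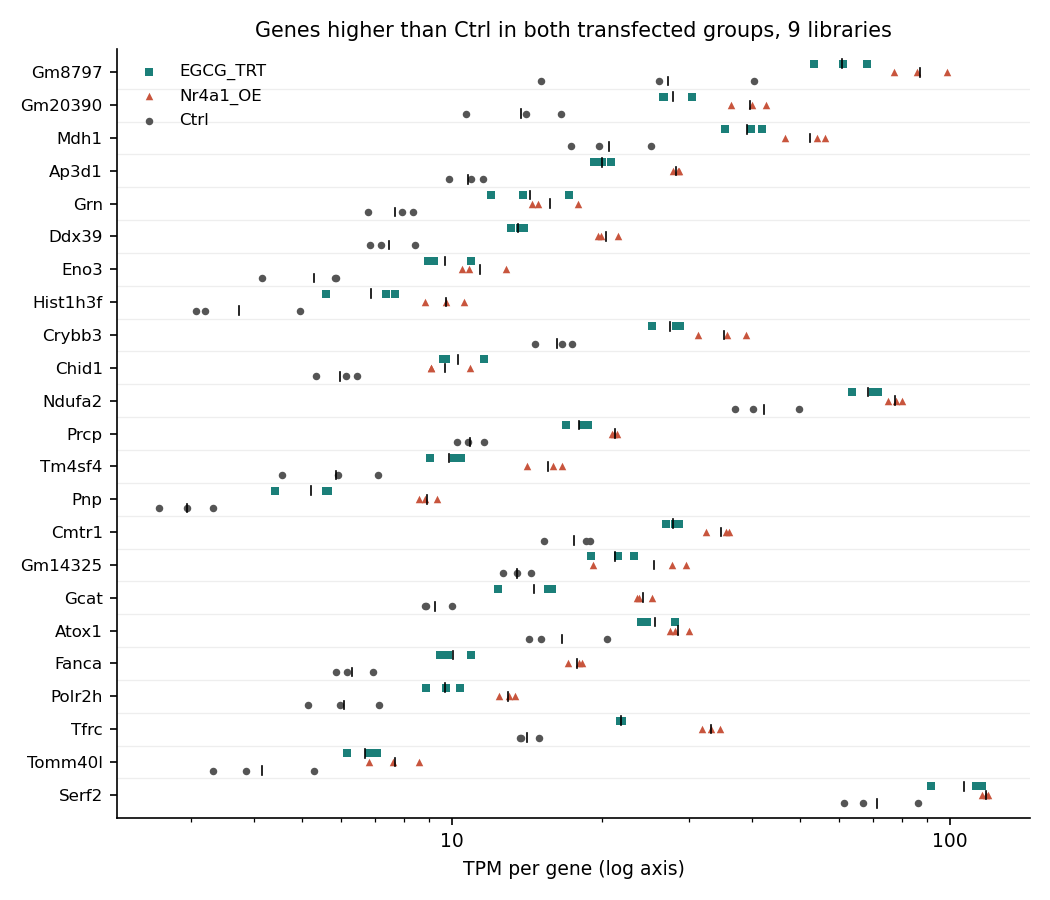
TPM of 23 of the 24 higher genes in each of the 9 libraries on a log axis, with squares for EGCG_TRT, triangles for Nr4a1_OE, circles for Ctrl and a short line at each group's mean. The circles lie left of the other symbols in every row, and the squares lie left of the triangles without overlap in 17 rows.

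The direct comparison of EGCG_TRT with Nr4a1_OE was not used by the rule, though the rule bounds it by keeping both groups past the same limit. Of the 55 genes, 25 were called (limma, Benjamini-Hochberg adjusted p under 0.05), against 53.0% of 11950 genes tested. Of the 24 higher genes, 14 were called as lower in EGCG_TRT and so nearer to Ctrl, against 34.1% of all genes tested called lower, and 10 were not called. Of the 31 lower genes, 10 were called as higher in EGCG_TRT and so nearer to Ctrl, against 18.8% called higher, 1 was called as lower (Hist1h2ap) and 20 were not called. The 2250 higher and 4080 lower calls behind those shares became 3155 and 2958 under median-ratio scaling, 2841 and 3075 after quantile normalization and 3475 and 2590 on the scale of nuclear protein-coding genes. The 34.1% and 18.8% cover all genes tested, while the 55 were chosen partly by their Nr4a1_OE values, so they are no like background. A like one would be the 917 higher and 402 lower genes that passed the Nr4a1_OE limits, for which no shares are given. Libraries of the groups did not overlap in 35 of the 55 genes, against 64.6% of all genes tested. Both shares lay near their background. The EGCG_TRT difference from Ctrl was smaller in size than the Nr4a1_OE difference in 42 of the 55 genes, 22 of the higher and 20 of the lower. That share over all genes is not given here, so the count is not particular to the 55. The limits were passed by 1319 genes in Nr4a1_OE and by 117 in EGCG_TRT. Median EGCG_TRT minus Nr4a1_OE differences were -0.37 for the higher genes and 0.17 for the lower ones, beside -0.088 for all genes tested. Not being called does not show equal levels.

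For reference, 59.5% of all genes tested were called between Nr4a1_OE and Ctrl (38.2% higher, 21.3% lower) and 18.2% between EGCG_TRT and Ctrl (11.1% higher, 7.1% lower). With median-ratio scaling, the Nr4a1_OE calls against Ctrl were 3420 higher and 3656 lower in place of 4561 and 2545, and the EGCG_TRT calls were 1197 and 1159 in place of 1323 and 849. That scaling moved the median Nr4a1_OE minus Ctrl difference by -0.11. The rule then chose 21 higher and 49 lower genes, quantile normalization 20 and 44, and the nuclear protein-coding scale 33 and 27, of which 52, 49 and 45 were among the 55. Just inside the limit were Serf2 and Tomm40l, whose smaller difference was 0.582 and 0.593, and Jun, Tpi1 and Snrpf, at -0.580, -0.582 and -0.606. Just outside were Acaa1a, Syne4 and Trappc2l, at 0.569, 0.558 and 0.556, and Tmsb10, Top2b and Myl12b, at -0.576, -0.574 and -0.567.

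The 55 genes shared a feature that the rule did not use: short transcripts. The most abundant transcript had a median length of 1266 bases in the higher genes, 672 bases in the lower genes and 2486.5 bases in all 6754 genes. It was under 1000 bases in 45.8% of the higher genes, 74.2% of the lower genes and 14.4% of all. Without genes of Gm symbols, 22 lower genes had a median of 680 bases and 68.2% under 1000. Among genes under 500 bases 5.47% were chosen, and among those from 500 to under 1000 bases 2.98%. From 1000 to under 2000 bases the share was 0.596%, and it was 0.242% at 4000 bases or more. The median difference of the 201 genes under 500 bases was -0.024 with EGCG and 0.17 without it. For the 1654 genes of 4000 bases or more it was 0.022 and 0.066. The chosen genes under 500 bases were 2 higher and 9 lower, so opposite differences can cancel in such a median. Whether short genes spread more was not tested.

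In several genes a single short transcript carried the difference. Serf2-201, of 525 bases, was at 64.6, 64.3 and 38.3 TPM in EGCG_TRT, at 62.6, 69.3 and 62.8 TPM in Nr4a1_OE and at 10.96, 4.82 and 34.0 TPM in Ctrl, while the 3056-base Serf2-204 stayed between 22.5 and 26.1 TPM in all 9 libraries. Ahcy-202, of 341 bases, was at 0.15, 0.67 and 0.00 TPM in EGCG_TRT, at 0.00, 0.00 and 0.21 TPM in Nr4a1_OE and at 8.42, 14.96 and 3.72 TPM in Ctrl. The 2543-base Ahcy-201, which encodes S-adenosylhomocysteine hydrolase, was at 10.1 to 11.8 TPM in EGCG_TRT, 13.01 to 15.1 TPM in Nr4a1_OE and 14.2 to 14.4 TPM in Ctrl. Rab8a-202, a retained-intron transcript of 542 bases from the gene of an exocytic GTPase, was at 10.8, 14.4 and 17.2 TPM in EGCG_TRT, at 14.8, 13.5 and 15.1 TPM in Nr4a1_OE and at 38.9, 32.4 and 18.9 TPM in Ctrl. The 4550-base coding Rab8a-201 was at 5.17 to 5.55 TPM in EGCG_TRT, 6.83 to 7.22 TPM in Nr4a1_OE and 5.87 to 6.28 TPM in Ctrl. Its groups did not overlap, and it was higher in Nr4a1_OE than in Ctrl. Mdh1 was carried by the 549-base Mdh1-202, and 92.6% of the TPM of Minos1, a cristae protein gene, came from the 436-base noncoding Minos1-201. The coding Minos1-203 was at 2.46 to 3.13 TPM in EGCG_TRT, 3.37 to 3.50 TPM in Nr4a1_OE and 3.01 to 3.18 TPM in Ctrl.

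When transcripts were weighted by length before they were summed, an alternative chosen after the data were seen, 35 of the 55 genes still met the rule, 14 higher and 21 lower. The 20 others were Chid1, Cmtr1, Fanca, Gcat, Gm14325, Pnp, Polr2h, Serf2, Tfrc and Tomm40l among the higher, and Ahcy, Iqcc, Jun, Minos1, Pqlc3, Rab8a, Rpl22, Rpl35, Ssbp4 and Tpi1 among the lower. Some missed narrowly, such as Jun at -0.576 and Tfrc at 0.565 with EGCG, while Serf2 was at 0.17 and 0.17, Gm14325 at 0.20 and 0.12, Ahcy at -0.44 and -0.13 and Rab8a at -0.44 and -0.13 (EGCG_TRT and Nr4a1_OE minus Ctrl). A gene with a single transcript can move under this weighting only by the scaling of whole libraries. Mafa, Jund, Snrpf, Scand1, Ndufa2 and Tm4sf4, each with a single transcript, thus kept their differences by construction. Jun, also with a single transcript, crossed the limit by that scaling alone. Reads shared with other genes may bear on more: Gcat, Cmtr1, Serf2 and Pnp share exon bases on the same strand with another gene. Because the strand setting is not given, genes on the opposite strand may matter too. Iqcc shares 11.9% of its exon bases with Tmem234 (mean 37.5 TPM) and Gm5148 10.2% with Rps23-ps1 (47.2 TPM). Snrpf shares 65.9% with Ccdc38 (3.07 TPM) and Jund 52.6% with Gm11175 (2.46 TPM).

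**Figure D5:**
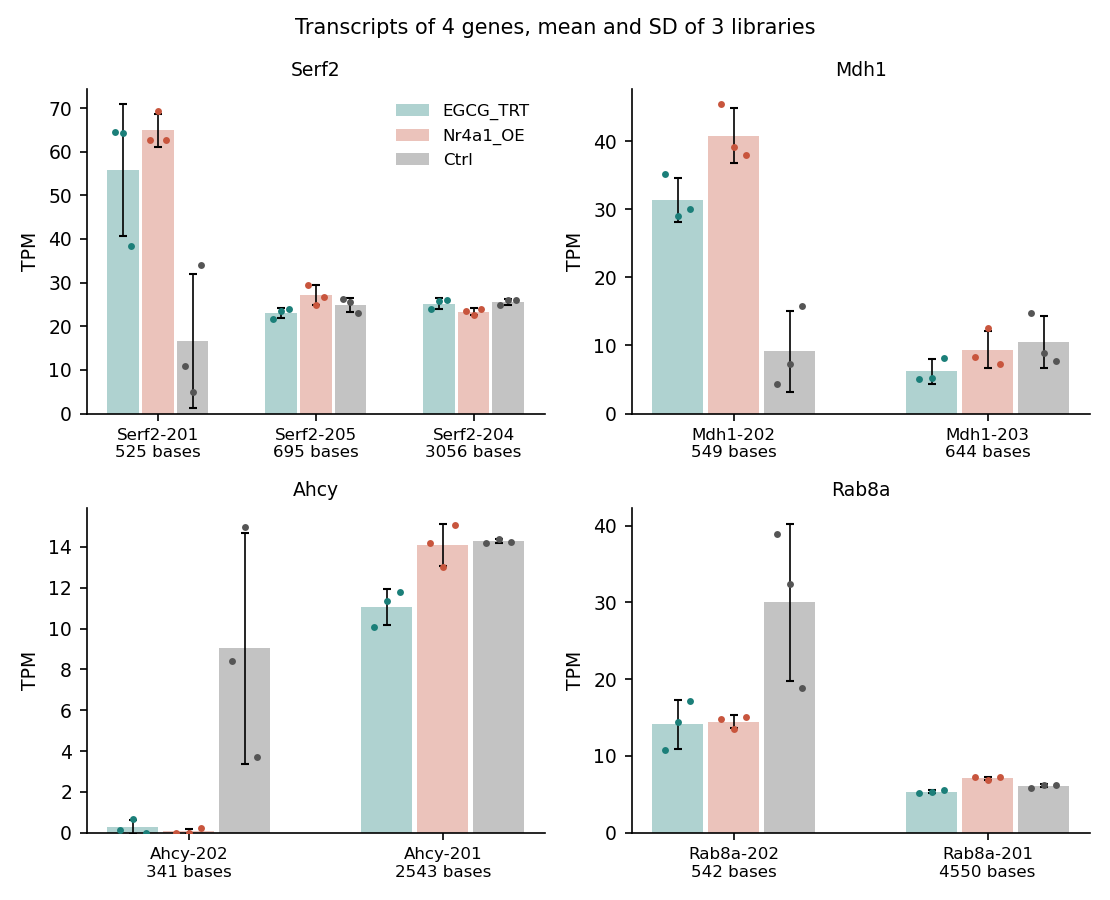
TPM of the transcripts with a mean of at least 3 TPM of Serf2, Mdh1, Ahcy and Rab8a, with bars for the mean, whiskers for the SD and points for the 3 libraries of each group. In each gene the leftmost, short transcript carries the difference from Ctrl. The longest transcript drawn of Serf2 is near the same level in all groups, and that of Rab8a is highest in Nr4a1_OE and lowest in EGCG_TRT.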

How the data were processed

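RNA-seq values were analysed in 9 MIN6 libraries, 3 per group, grouped by sample titles. The authors deposited TPM per Ensembl transcript. Per the submitters' processing notes, bcl2fastq 2.20, FastQC 0.11.9, cutadapt 2.8, STAR 2.7.1a, RSEM 1.2.31 and the GRCm39 build were used. For the annotation release and strand setting, the sources used here give nothing. TPM keeps no depth, shares reads among near-identical copies by estimation, and weighs a short transcript's reads more than a long one's.

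Of 142435 identifiers, 138346 (97.13%) were joined to 52408 genes of GENCODE M21 (GRCm38, used for names, types, lengths and the coordinates printed), and TPM was summed per gene. The 4089 others held 18.0% to 20.6% of TPM. Differences are of mean log2(TPM + 1), computed here from the deposited TPM, which understates low genes. The 11950 genes that reached 1 TPM in 3 or more libraries were tested in a single fit of all 9 libraries with limma 3.58.1 (mean-variance trend, R 4.3.3), two-sided, with Benjamini-Hochberg adjustment over all of them. The fit was tested on simulated data. Depth is unknown, so no counting interval is given. All 55 genes passed the filter.

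The genes and lists were chosen with earlier results of these data known. Of the 55, 41 were on no list. Genes named are, per direction, the 12 whose smaller difference was largest, the 6 with the highest mean TPM and the 3 on each side of the limit, with up to 8 called genes toward and 8 away from Ctrl by size and those on a list. One gene that the rule names is not reported here. Other genes and the CCAAT and TATAA motifs were added after values were seen. Alternatives covered the pseudocount (0.1, 0.5), filters, 3 scalings, background subtraction, the trend, the samples fitted, a replicate block, the rule's limits, each library left out and length-weighted sums. Other steps used Python 3.11.15, pandas 2.3.3 and matplotlib 3.10.9.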

Additional observations from a re-analysis of the deposited data

Results flagged for a closer look

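Transcript identifiers that had no gene in GENCODE M21 were outside the comparisons above. Of 87 of them with a mean of at least 5 TPM, 11 were higher than Ctrl in both EGCG_TRT and Nr4a1_OE by the same limits and 9 were lower in both. They are named by no annotation used here. No single gene's libraries were screened for outliers, since each group has 3.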

How the results depend on the processing

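Main counts were 24 higher and 31 lower genes, 1 called farther and 24 called nearer to Ctrl with EGCG, and 6330, 7106 and 2172 genes called for EGCG_TRT against Nr4a1_OE, Nr4a1_OE against Ctrl and EGCG_TRT against Ctrl. Median-ratio scaling gave 49 lower genes and the nuclear protein-coding scale 15 called nearer. A limit of 1 left 1 higher and 11 lower genes, with 0 called nearer. A minimum of 1 TPM gave 38 higher and 49 lower. The count called farther was 0 with no filter, the 3 scalings, no trend and a limit of 1, 2 with a pseudocount of 0.1, and 3 with only the 2 groups compared or a minimum of 1 TPM. No filter called 12395 genes for Nr4a1_OE and 4775 for EGCG_TRT against Ctrl, and a mean of at least 5 TPM called 4112 for EGCG_TRT against Nr4a1_OE and 4578 for Nr4a1_OE against Ctrl. With only the 2 groups compared, EGCG_TRT against Ctrl called 895. Length-weighted sums called 3314 there and 14 of the chosen genes nearer. Leaving out a library in turn gave 18 (Ctrl replicate 1) to 62 (Ctrl replicate 3) higher, 24 (Ctrl replicate 2) to 70 (Ctrl replicate 3) lower, 40 higher without EGCG_TRT replicate 3, 18 to 59 called nearer, 0 to 9 called farther and 733 (without EGCG_TRT replicate 1) to 3223 genes called for EGCG_TRT against Ctrl. The causes were not tested, beyond the fewer genes or libraries by construction.

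Same-numbered libraries did not all deviate together (correlations from -0.021 to 0.21), nor did each correlate best with its own number. Differently numbered ones ran from -0.24 to 0.12. The main fit used no pairing, and correlations from 3 libraries per group cannot decide whether the numbers mark pairs. A replicate block called 5882, 6723 and 1221 genes in the order above, with 4 called farther and 23 nearer. For single genes, 843 of 900 values over 43 genes kept direction and side of the threshold, 39 lost a call, 18 gained one and 0 reversed. Mdh1, Hist1h3f, Crybb3, Prcp and Cmtr1 lost theirs under all 3 scalings. Depth is unknown.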

Other observations

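Outside nuclear protein-coding genes, the same limits were met by 7 of 13 mitochondrially encoded protein genes, all 7 lower in both groups than in Ctrl. mt-Nd1, a complex I subunit, was at 960, 1154 and 1217 TPM in EGCG_TRT, at 1158, 1105 and 1098 TPM in Nr4a1_OE and at 2711, 2698 and 2037 TPM in Ctrl. The transfected groups overlapped. mt-Atp6, of the ATP synthase, was at 282, 249 and 273 TPM in EGCG_TRT, at 363, 328 and 369 TPM in Nr4a1_OE and at 888, 693 and 527 TPM in Ctrl. The other genes that met the limits were mt-Nd2, mt-Nd4, mt-Nd5, mt-Nd6 and mt-Atp8. For none of the 7 was EGCG_TRT called apart from Nr4a1_OE (limma, adjusted p from 0.0617 to 0.909). These genes stand beside the nuclear oxidative phosphorylation list, of which 27 of 40 were higher in Nr4a1_OE than in Ctrl. Of all genes tested, 38.2% were higher there. Among 10 unprocessed pseudogenes of at least 5 TPM, 4 were also lower in both groups. They are Gm10222, Gm10925, Gm28438 and Gm28661 on chromosome 1. Whether they share reads with the mitochondrial genes was not tested.

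Most small structured RNA genes did not meet the limits, and those that did were higher than Ctrl. Of 85 small nucleolar RNA genes of at least 5 TPM, which guide the modification of ribosomal and other RNAs, 19 were higher in both groups than in Ctrl and 0 lower, as were 4 of 10 scaRNA genes and 4 of 15 snRNA genes. Among the 4 snRNA genes, 2 (Rnu2-10 and Gm23472) had identical values in all 9 libraries and so are a single signal. Snora73a was at 789, 779 and 571 TPM in EGCG_TRT, at 829, 885 and 786 TPM in Nr4a1_OE and at 332, 333 and 486 TPM in Ctrl. Rnu11, the U11 RNA of the minor spliceosome, was at 199.7, 221.5 and 144.1 TPM in EGCG_TRT, at 20.1, 0.95 and 63.9 TPM in Nr4a1_OE and listed at 0 in Ctrl. Gm28872, annotated over the same bases on the other strand, ran the other way, at 242, 281 and 397 TPM in EGCG_TRT, at 104, 102 and 104 TPM in Nr4a1_OE and at 832, 803 and 522 TPM in Ctrl. With the strand setting not given, reads of this pair cannot be told apart. TPM shares a fixed total among all transcripts. Rescaled to nuclear protein-coding genes alone, the limits were met by 33 higher and 27 lower genes.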
